A study of Rattus norvegicus with 12 samples.

Results

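The genes described are Slc2a2, G6pc2, Kcnj11 and Abcc8, which encode the glucose entry, glucose phosphate and KATP channel steps of the beta cell. They were chosen by gene symbol, as 4 of the 31368 genes in the count table. Of these, 3 had counts and passed the filter on low counts, and G6pc2 was listed at 0 in all 12 libraries. RNA was measured by 3prime sequencing in INS-1 832/3 cells, a clonal rat insulinoma line that secretes insulin, with 3 libraries in each of 4 groups. Control cells were left untreated, and the urolithin B group received 50 uM for 12 h of this compound, which gut bacteria form from ellagitannins. The IAPP group was exposed for 24 h to 2 uM islet amyloid polypeptide (IAPP), a peptide that beta cells release with insulin. The urolithin B + IAPP group had the same urolithin B treatment first and the same IAPP exposure after it. All groups shared the wild-type genotype and the same medium with serum. It is not stated whether the urolithin B group stayed in culture for the 24 h that the IAPP exposure took, nor which species the IAPP sequence is from. The libraries are labelled as biological replicates, but separate cultures are not mentioned, so the p-values rest on differences among these libraries that could be technical.

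In rodent beta cells glucose enters through the facilitative transporter GLUT2, the product of Slc2a2, and is then phosphorylated, which commits it to use in the cell. The glucose-6-phosphatase catalytic subunit encoded by G6pc2 removes that phosphate again. Metabolism of glucose raises ATP relative to ADP and closes the KATP channel. This channel is built from the pore subunit Kir6.2, the product of Kcnj11, and the regulatory subunit SUR1, the product of Abcc8, which binds the sulfonylurea drugs. Its closure depolarises the cell, calcium enters, and insulin granules fuse with the membrane.

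Upstream sequence is shown for Slc2a2 and G6pc2, the 2 of the 4 members that the RefSeq promoter table of the GRCr8 assembly matched. The 250 bases before the start of Slc2a2 lie at chr2:113540120-113540369 on the plus strand, and those of G6pc2 at chr3:74404726-74404975 on the plus strand. The capitals mark matches to CANNTG, the E-box bound by basic helix-loop-helix factors, and to TAAT, a core of homeodomain sites, read on either strand, so that a match on the minus strand appears as its reverse complement. The marked matches do not overlap one another.
Slc2a2: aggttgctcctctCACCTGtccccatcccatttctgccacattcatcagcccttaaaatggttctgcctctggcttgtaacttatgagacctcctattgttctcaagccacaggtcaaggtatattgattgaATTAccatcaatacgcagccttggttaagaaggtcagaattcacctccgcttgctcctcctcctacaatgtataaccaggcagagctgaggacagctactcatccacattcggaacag
G6pc2: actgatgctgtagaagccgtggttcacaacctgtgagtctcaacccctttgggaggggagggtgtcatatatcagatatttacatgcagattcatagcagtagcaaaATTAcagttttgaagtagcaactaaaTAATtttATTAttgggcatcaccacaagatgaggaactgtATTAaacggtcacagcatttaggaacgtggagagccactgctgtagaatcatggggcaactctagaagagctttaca
Slc2a2 had 1 E-box match, 237 to 232 bases before the start, and 1 TAAT match, 118 to 115 bases before it. G6pc2 had 4 TAAT matches and 0 E-box matches. Neither window held the Maf factor half-site, spelled TGCTGA, on either strand. The core promoter motif spelled TATAAA was in neither window as well. Of 33469 promoters in the table, 65.5% held an E-box, 57.0% the homeodomain core, 15.1% the Maf half-site and 12.9% the core promoter motif in the same stretch. These matches describe the letters only. No binding was measured.

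The libraries held 4828003 to 6681455 counts. The 4 replicate 1 libraries, 1 of each group, stood apart, with mitochondrial rRNA at 7.99% ± 1.01 (SD, n = 4) of counts against 16.0% ± 2.97 (SD, n = 8) in the others. The share averaged 11.6% ± 2.87 in control libraries, 12.1% ± 2.84 after urolithin B, 15.1% ± 6.39 after IAPP and 14.3% ± 6.85 after both (SD, n = 3). Of 13 beta-cell markers, 12 had counts. Neurod1 was listed at 0 in every library, as was Iapp itself. The summed markers ran from 17279 to 27196 CPM (counts scaled to the library total) in control libraries, 21632 to 35629 after urolithin B, 16752 to 26266 after IAPP and 21916 to 33198 after both. Ins1 makes up much of this sum, at 11049 CPM on average in control and 13729 CPM in IAPP cells. Gene by gene, the median log2 fold change of the 11 tested beta-cell markers was -0.29 after IAPP, with 8 of 11 below 0, and 0.28 in urolithin B + IAPP against IAPP, with 9 of 11 above 0. In both comparisons edgeR called 1 higher and 1 lower, where 0.845% and 0.577% of all tested genes were called. With the replicate number as a block 1 rose and 3 fell after IAPP, and 5 rose and 1 fell in the second. The block called 7.83% and 5.24% of all tested genes. The granule protein gene Chga averaged 6112 ± 731 CPM in control libraries, 4312 ± 245 CPM after IAPP and 6101 ± 767 CPM after both agents (SD, n = 3). It was called in neither comparison without the block. The transcription factor gene Nkx6-1, called in both, went the other way. It averaged 27.4 ± 1.46, 44.9 ± 5.09 and 27.3 ± 2.26 CPM in the same order (SD, n = 3). The other islet hormone genes, 4 with Sst and Ppy at 0, summed to 24.7 to 105 CPM in control libraries, 41.9 to 215 after urolithin B, 29.4 to 135 after IAPP and 44.5 to 206 after both. Nearly all of this was Gcg, the proglucagon gene, which passed with the block alone in the comparisons that follow. Its block log2 fold changes were 0.50 after IAPP, 0.95 after urolithin B, 1.13 after both against control and 0.63 after both against IAPP. Their edgeR adjusted p ran from 3.65e-05 to 0.0139. In the same order 7.83%, 0.00595%, 0.0714% and 5.24% of all tested genes passed with the block. The acinar marker sum, over 5 genes with Prss1 and Cpa1 at 0, ran from 2.31 to 3.29 CPM in control libraries, 2.96 to 5.13 after urolithin B, 5.18 to 8.42 after IAPP and 2.73 to 7.01 CPM after both. The sum of 4 ductal markers ran from 14.1 to 26.0, 20.4 to 24.6, 22.3 to 30.3 and 16.9 to 29.1 CPM in the same order. The sum of 4 macrophage markers ran from 6.52 to 29.5, 7.31 to 27.2, 8.87 to 36.9 and 5.98 to 33.4 CPM, and that of 5 mesenchymal and endothelial markers from 16.3 to 42.0, 5.75 to 26.7, 11.1 to 76.1 and 4.62 to 50.8 CPM, with overlap between all groups. Of the 3 tested ductal markers, 2 had log2 fold changes above 0 after IAPP and 1 below 0. The keratin gene Krt7 had a change of 1.10 ± 0.22 and so rose (edgeR adjusted p = 0.0432). It was the 1 ductal call, where 0.845% of all tested genes were called. Sox9 averaged 7.48 ± 2.67 CPM in control and 5.80 ± 0.505 CPM in IAPP libraries (SD, n = 3).

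Among the 3 detected members, the groups separated in Slc2a2, the gene of glucose entry. Slc2a2 stood at 463, 555 and 544 CPM in replicates 1, 2 and 3 of control cells, and at 252, 327 and 335 CPM in those of IAPP cells. Every IAPP library was below every control library. The IAPP mean of 305 ± 45.8 CPM was 58.5% of the control mean of 520.6 ± 50.0 CPM (SD, n = 3). Cells given urolithin B before IAPP held 496, 628 and 614 CPM, a mean of 580 ± 72.4 CPM (SD, n = 3), all above the IAPP libraries and overlapping those of control cells. Urolithin B alone gave 509, 706 and 555 CPM, a mean of 590 ± 103 CPM (SD, n = 3), which also overlapped control. In bulk RNA, fewer cells that express a gene and less RNA of it per cell cannot be told apart.

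**Figure D1:**
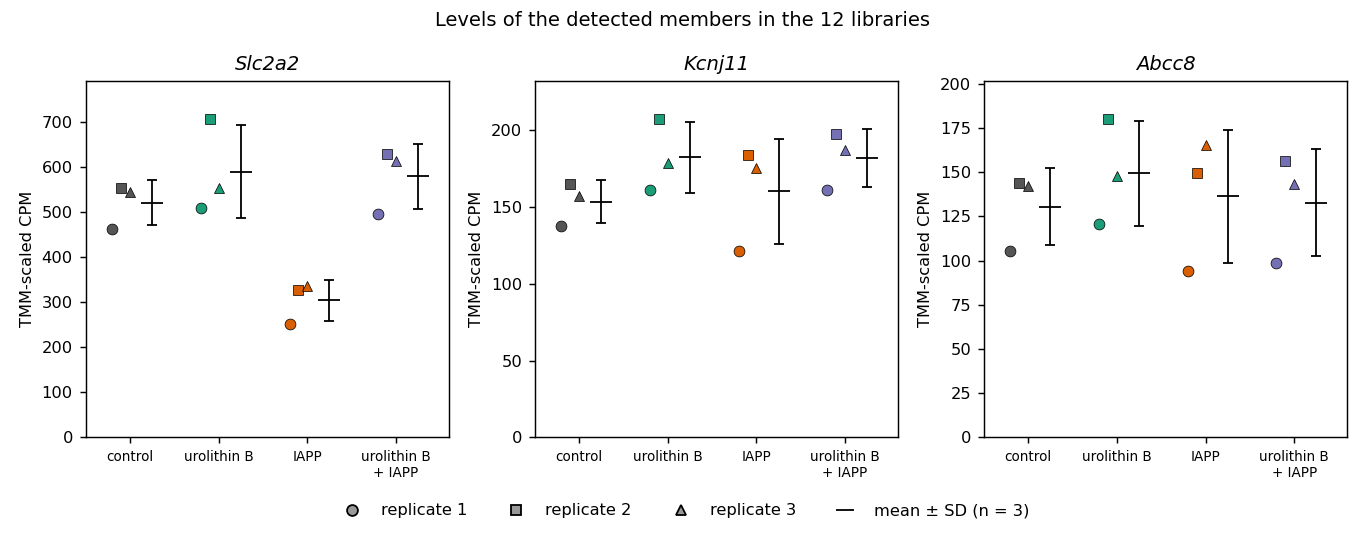
CPM scaled by TMM factors (y axes, from 0) of Slc2a2, Kcnj11 and Abcc8 in each library of the 4 groups, with circles, squares and triangles for replicates 1, 2 and 3 and bars for the mean ± SD (n = 3). The 3 IAPP libraries of Slc2a2 lie between 252 and 335 CPM, under all 9 others, while the groups of Kcnj11 and Abcc8 overlap.

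The first comparison asked what IAPP alone did to these genes. Slc2a2 had a log2 fold change of -0.77 ± 0.17 (SE; 95% interval -1.14 to -0.41), and it was lower in 3 of 3 pairs of libraries with the same replicate number. The change missed the threshold of 0.05 in the edgeR quasi-likelihood test over all 16814 tested genes (adjusted p = 0.0589) and passed it with the replicate number as a block (log2 fold change -0.78, adjusted p = 1.13e-05). Thus 0 of 3 tested members passed without the block, where 0.845% of all tested genes passed in either direction, 92 higher and 50 lower (24 and 31 with library size as the only scaling). With the block 1 of 3 passed, where 7.83% of all tested genes passed and 4.04% were lower. Groups of libraries that did not overlap, with IAPP lower, were seen in 7.54% of all tested genes. Over the 21 single libraries and settings tried beside the block the change ran from -0.86 to -0.66. It passed with library size alone as the scaling (-0.86, edgeR adjusted p = 0.0181), with DESeq2 (adjusted p = 0.00022), with limma-voom (adjusted p = 0.0411), in replicates 2 and 3 alone (-0.73, edgeR adjusted p = 0.00246) and without urolithin B replicate 2 (edgeR adjusted p = 0.0470). With mitochondrial rRNA taken out the change was -0.77 (edgeR adjusted p = 0.0566). Counting the block, it passed in 6 of 22 alternatives, and in only 1 of those with a single library left out. It missed without control replicate 2 (edgeR adjusted p = 0.287) and without control replicate 3 (edgeR adjusted p = 0.312, the highest). The beta-cell markers had a median log2 fold change of -0.29, with 1 called higher and 1 lower without the block. Gcg was higher with the block alone, the acinar marker sum was higher without overlap, and Krt7 rose. The part of these genes in the result was not tested.

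The channel genes overlapped between these groups. Kcnj11 stood at 138, 165 and 158 CPM in control and 121, 184 and 176 CPM in IAPP cells, means of 154 ± 14.1 and 160.3 ± 34.0 CPM (SD, n = 3). Abcc8 stood at 106, 144 and 142 CPM in control and 93.9, 149 and 166 CPM in IAPP cells, means of 131 ± 21.6 and 136 ± 37.6 CPM (SD, n = 3). For both genes the IAPP libraries lay on either side of the control libraries. The log2 fold change of Kcnj11 was 0.06 ± 0.17, with a 95% interval from -0.30 to 0.42. That of Abcc8 was 0.06 ± 0.24, with an interval from -0.46 to 0.59. Neither passed with edgeR (adjusted p = 1.00 for each) or with the block (adjusted p = 0.852 for Kcnj11 and 0.878 for Abcc8). The sign of both depended on the scaling, at -0.035 for Kcnj11 and -0.040 for Abcc8 with library size alone. The intervals do not reach the -0.77 of Slc2a2, but they leave room for changes of either sign. That of Abcc8 overlaps the interval of Slc2a2, -1.14 to -0.41. Whether the genes differ in their change was not tested.

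Prior urolithin B was then examined in cells exposed to IAPP. Slc2a2 was 1.90-fold higher in urolithin B + IAPP than in IAPP cells (95% interval 1.48 to 2.45), a log2 fold change of 0.93 ± 0.17 (SE; interval 0.57 to 1.29). It rose in the edgeR test (adjusted p = 0.0336, and 9.38e-07 with the replicate block) and was higher in 3 of 3 pairs with the same number. This was 1 of 3 tested members, where 0.577% of all tested genes passed, 26 higher and 71 lower (7 and 11 with library size as the only scaling), or 0.155% in the higher direction. With the block 5.24% passed and 2.51% were higher. Groups that did not overlap, with urolithin B + IAPP higher, were seen in 6.58% of all tested genes. The beta-cell markers had a median of 0.28 in this comparison, with 1 called higher and 1 lower without the block. Gcg was higher with the block alone. The part of these genes in the result was not tested. The comparison shares its IAPP libraries with IAPP against control, so the opposite signs of the 2 changes are not independent.

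The call for Slc2a2 rested on few libraries, although the direction was the same in all settings. Without IAPP replicate 1 the log2 fold change was 0.81 (edgeR adjusted p = 0.145), without IAPP replicate 2 it was 0.99 (adjusted p = 0.137) and without IAPP replicate 3 it was 1.01 (adjusted p = 0.114). Without urolithin B + IAPP replicate 1, 2 or 3 it was 1.05, 0.87 and 0.88 (edgeR adjusted p = 0.0556, 0.182 and 0.192). Libraries outside the 2 groups compared also mattered. Without control replicate 2, control replicate 3 or urolithin B replicate 3 the change was 0.93, 0.94 and 0.93, as large as with all libraries, and missed the threshold (edgeR adjusted p = 0.0695, 0.110 and 0.0647). The call also ended with no filter on low counts (0.94, adjusted p = 0.0522) and with only the 2 groups compared in the edgeR fit (0.92, adjusted p = 0.0551). It was kept in replicates 2 and 3 alone (0.90, edgeR adjusted p = 0.000519), with DESeq2 (adjusted p = 4.48e-06) and with limma-voom (adjusted p = 0.0209).

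Kcnj11 stood at 161, 198 and 187 CPM in urolithin B + IAPP cells, a mean of 182 ± 18.9 CPM, and Abcc8 at 98.5, 157 and 143 CPM, a mean of 133 ± 30.4 CPM (SD, n = 3). Both overlapped the IAPP libraries. Against IAPP the log2 fold change was 0.19 ± 0.17 for Kcnj11 (95% interval -0.18 to 0.55, edgeR adjusted p = 0.968) and -0.04 ± 0.24 for Abcc8 (-0.56 to 0.49, edgeR adjusted p = 0.999). Neither passed with the block.

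Urolithin B in unchallenged cells changed no member past the threshold. Kcnj11 stood at 161, 207 and 179 CPM with urolithin B and Abcc8 at 121, 180 and 148 CPM, means of 182 ± 23.2 and 149 ± 29.7 CPM (SD, n = 3). Each of the 3 detected members was higher than control in 3 of 3 pairs with the same number, and each overlapped the control libraries. The members share these libraries, so their signs are not independent, and the share of all tested genes higher in 3 of 3 pairs was not counted. The log2 fold changes were 0.18 ± 0.16 for Slc2a2 (95% interval -0.18 to 0.54), 0.25 ± 0.17 for Kcnj11 (-0.11 to 0.61) and 0.20 ± 0.24 for Abcc8 (-0.33 to 0.72), each with edgeR adjusted p = 1.00. With the block Kcnj11 had edgeR adjusted p = 0.999. No gene of the whole table passed in this comparison (0%, and 0.00595% with the block), where 151 had an unadjusted edgeR p under 0.05 and DESeq2 and limma-voom called 0.

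In cells that received both agents no member passed against control or against urolithin B. Against control, the log2 fold changes were 0.16 ± 0.16 for Slc2a2 (95% interval -0.20 to 0.51), 0.25 ± 0.17 for Kcnj11 (-0.12 to 0.61) and 0.02 ± 0.24 for Abcc8 (-0.50 to 0.55; -0.12 with library size alone). Against urolithin B they were -0.03 ± 0.16 for Slc2a2 (-0.38 to 0.33), -0.00 ± 0.16 for Kcnj11 (-0.36 to 0.36) and -0.17 ± 0.24 for Abcc8 (-0.70 to 0.35), with Abcc8 lower in 3 of 3 pairs. No member passed in either comparison with edgeR, with or without the block. Over all tested genes 0% passed in each, with 411 and 281 genes at an unadjusted edgeR p under 0.05, and 0.0714% and 0.0119% with the block. DESeq2 called 5 and 0 genes, and limma-voom 0 in both. A miss of the threshold does not show that the levels were equal, and the intervals allow Slc2a2 to differ from control by up to 0.51 on the log2 scale.

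The interaction asked whether the change with IAPP differed between cells with and without urolithin B. For Slc2a2 it was 0.75 ± 0.23 on the log2 scale (95% interval 0.24 to 1.26). It did not pass in the edgeR test (adjusted p = 0.611) and passed with the replicate block (0.76, adjusted p = 0.00376). The values for Kcnj11 and Abcc8 were -0.06 ± 0.23 and -0.23 ± 0.34 and passed in neither fit. Of all tested genes 0.0297% passed, 0 higher and 5 lower (1 and 4 with library size as the only scaling). With the block 1.63% passed and 0.613% were higher.

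**Figure D2:**
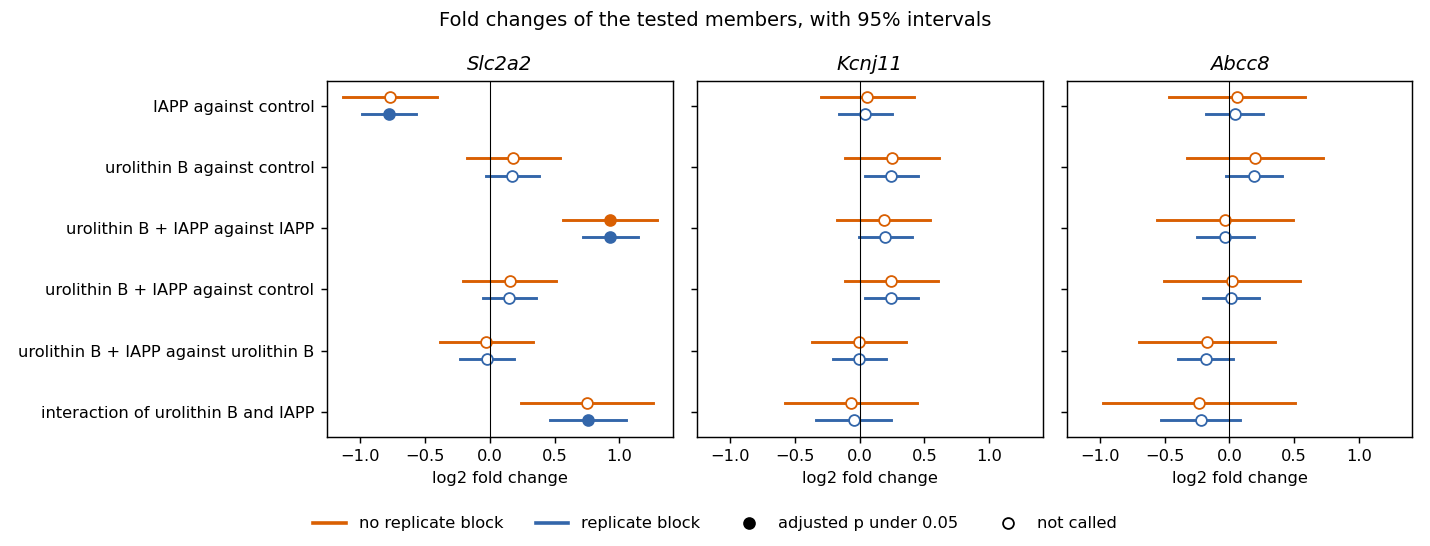
Log2 fold changes (x axes) of Slc2a2, Kcnj11 and Abcc8 in the 5 pairwise comparisons and the interaction (y axis), with 95% intervals, in orange without and in blue with the replicate block, filled where the adjusted p is under 0.05. Without the block the 1 filled point is Slc2a2 in urolithin B + IAPP against IAPP, at 0.93, and with the block Slc2a2 is filled there, in IAPP against control and in the interaction.

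The order of the group means of Slc2a2 was urolithin B, urolithin B + IAPP, control and IAPP. The first 3 overlapped one another and the last stood apart from its neighbour. For Kcnj11 the order was urolithin B, urolithin B + IAPP, IAPP and control, and for Abcc8 it was urolithin B, IAPP, urolithin B + IAPP and control. All neighbours in these 2 orders overlapped. Much of the spread within groups followed the replicate number. In every group replicate 1 was the lowest of the 3 libraries for Slc2a2, Kcnj11 and Abcc8, on average by -0.21, -0.22 and -0.37 on the log2 scale relative to the group mean. The biological coefficient of variation, the spread beyond counting error, was 14.8% for Slc2a2, 14.8% for Kcnj11 and 20.9% for Abcc8 without the block, and 8.56%, 8.38% and 8.77% with it. Counting error was smaller, at 1.48% to 2.63% of a library's value for Slc2a2 (1450 to 4542 counts), 2.74% to 3.65% for Kcnj11 (749 to 1333 counts) and 2.94% to 4.13% for Abcc8 (585 to 1157 counts).

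Ratios within a library do not depend on its depth or scaling, and they set the transporter against the channel. The ratios of Slc2a2 were formed after its level was seen to separate the IAPP libraries, so they restate that difference on a scale free of depth and are given with no test. The log2 ratio of Slc2a2 to Kcnj11 counts was 1.75, 1.75 and 1.79 in control, 1.66, 1.77 and 1.63 in urolithin B, 1.05, 0.83 and 0.93 in IAPP, and 1.62, 1.67 and 1.71 in urolithin B + IAPP libraries 1, 2 and 3. The 9 libraries of the other groups lay within a narrow band, and the 3 IAPP libraries lay under it. The mean was 0.82 lower in IAPP than in control cells (difference -0.82) and 0.73 higher in urolithin B + IAPP than in IAPP cells. The same differences were -0.81 and 0.96 for the ratio of Slc2a2 to Abcc8. Groups did not overlap in any of these 4. Single libraries left out moved the Kcnj11 ratio differences between -0.88 and -0.77 and between 0.68 and 0.79.

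The ratio of the 2 channel subunits overlapped between groups. The log2 ratio of Abcc8 to Kcnj11 averaged -0.24 ± 0.13 in control libraries, -0.30 ± 0.11 after urolithin B, -0.25 ± 0.15 after IAPP and -0.48 ± 0.20 after both (SD, n = 3). IAPP against control differed by -0.01 (two-sided exact permutation p = 1.0). Urolithin B + IAPP lay 0.23 under IAPP and under control (differences -0.23 each), lower in 3 of 3 pairs with the same number. The exact permutation p was 0.2 for each, and 3 libraries against 3 cannot go below 0.1. Its adjusted value was 0.3 over the 9 ratio comparisons computed. This family holds the ratios of Slc2a2, formed after the data were seen, whose lower p-values bring the adjusted value down. Counts of a 3prime method follow each gene's poly(A) sites, so the ratio is not the subunit ratio of the channel.

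**Figure D3:**
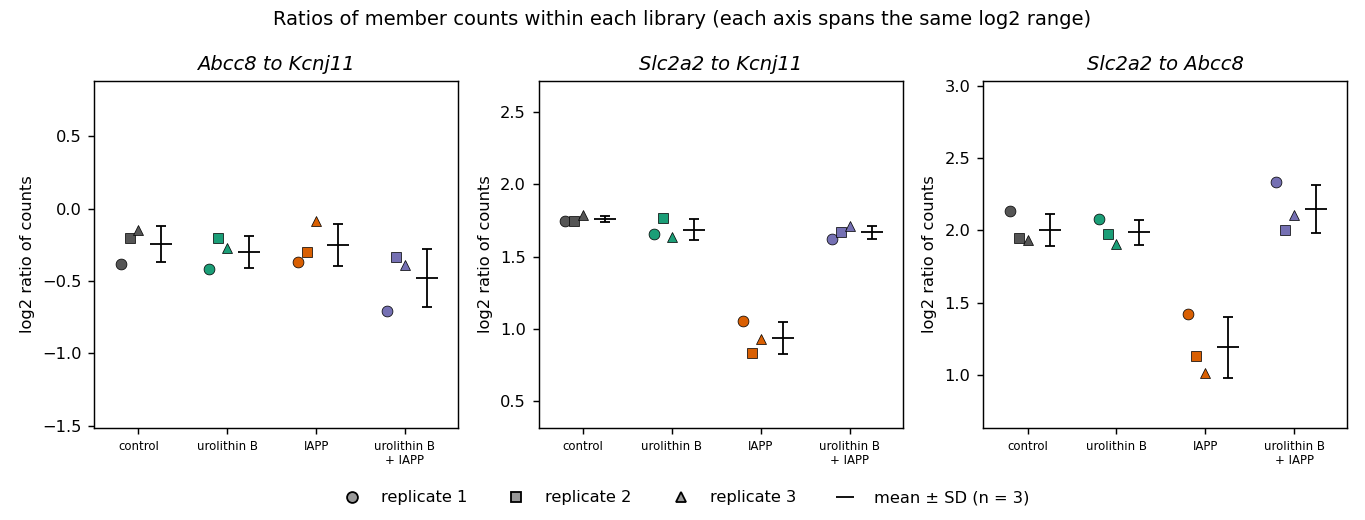
Log2 ratios of counts within each library (y axes, each spanning the same range) for Abcc8 to Kcnj11 and for Slc2a2 to Kcnj11 and to Abcc8, by group, with symbols for replicates 1, 2 and 3 and bars for the mean ± SD (n = 3). The 3 IAPP libraries are the lowest in both ratios of Slc2a2, while the groups overlap in the ratio of Abcc8 to Kcnj11.

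G6pc2 was listed at 0 in all 12 libraries. A floor of 3 counts per library corresponds to 0.463 to 0.683 CPM, for counting error only. Neurod1, a transcription factor of beta cells, and Iapp were also listed at 0 in all 12. The table thus lists at 0 some genes that beta cells are known to express. Sst and Ppy, of the other islet hormones, were at 0 in all 12 as well. No fold change is given for G6pc2.

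The other genes of the pathway were counted by step. Of 9 tested glucose transporters beside Slc2a2, 0 rose and 0 fell in IAPP against control or in urolithin B + IAPP against IAPP, with median log2 fold changes of 0.00 and -0.11 (0.05 and -0.02 over all tested genes). Slc2a9, a urate transporter of the same family, had a change of 1.14 ± 0.46 after IAPP (edgeR adjusted p = 0.397, and 0.0312 with the block, the 1 call of the list with it). Slc2a4, which encodes the insulin-responsive transporter GLUT4, had -0.70 ± 0.41, and Slc2a13, which encodes a proton and myo-inositol cotransporter, 0.28 ± 0.32.

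Among 9 tested genes of glucose phosphorylation and its reversal, 0 rose and 0 fell in either comparison, with medians of 0.06 and -0.04. With the block 2 of 9 fell after IAPP, where 4.04% of all tested genes did. These were Slc37a4, the glucose-6-phosphate carrier of the endoplasmic reticulum, at -0.67 ± 0.24 (edgeR adjusted p = 0.297, block 0.0229), and Gpi, which converts glucose-6-phosphate to fructose-6-phosphate, at -0.34 ± 0.10 (adjusted p = 0.168, block 0.0310). G6pc3, the widely expressed glucose-6-phosphatase, had a change of 0.46 ± 0.22 and was not called. In urolithin B + IAPP against IAPP the block called 2 of 9 higher, where 2.51% of all tested genes were higher. These were Slc37a4 (0.63 ± 0.24, edgeR adjusted p = 0.0290 with the block) and Pfkfb2 (0.45 ± 0.27, adjusted p = 0.0169 with the block), a regulator of glycolysis named after its values were seen.

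Other KATP subunits had few counts. Kcnj8, the pore subunit Kir6.1, had 1 count in all 12 libraries together. Abcc9, which encodes SUR2, had 24 to 48 counts in the replicate 1 libraries and 1 to 9 counts in the others. Its log2 fold change after IAPP was -0.02 ± 1.28, and its spread followed the replicate number.

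Of 24 tested genes that link glycolysis to the mitochondria, 0 rose and 0 fell in either comparison, with medians of -0.10 after IAPP and 0.15 in urolithin B + IAPP against IAPP. With the block 4 of 24 fell after IAPP, beside 4.04% of all tested genes, and 3 of 24 rose in the second comparison, beside 2.51%. After IAPP they were Pkm, a pyruvate kinase (-0.66 ± 0.21, edgeR adjusted p = 0.214, block 0.00287), Acly, which makes cytosolic acetyl-CoA (-0.42 ± 0.11, adjusted p = 0.130, block 0.00992), the enolase gene Eno1 (-0.54 ± 0.46) and the citrate carrier gene Slc25a1 (-0.45 ± 0.20). Pfkp, a phosphofructokinase, had -0.30 ± 0.13 and was not called. In the second comparison they were Eno1 (0.57 ± 0.46), Acly (0.39 ± 0.11) and the phosphofructokinase gene Pfkm (0.38 ± 0.13). Eno1, Slc25a1 and Pfkm were named after their values were seen.

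Of 12 tested genes that act after channel closure, 0 rose and 0 fell in either comparison, with medians of -0.15 and 0.03. With the block 2 of 12 fell after IAPP, beside 4.04% of all tested genes. They were Vamp2, a granule SNARE protein (-0.39 ± 0.11, edgeR adjusted p = 0.156, block 0.0212), and the calcium channel gene Cacna1a (-0.49 ± 0.34, block 0.00348), named after its values were seen. Cacna1c, which encodes the L-type calcium channel Cav1.2, had 0.33 ± 0.14 after IAPP and -0.61 ± 0.14 in urolithin B + IAPP against IAPP, where it fell with the block alone (edgeR adjusted p = 0.120, block 0.00206). Stx1a, a SNARE protein of the plasma membrane, had -0.26 ± 0.18 after IAPP.

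Calls without the block were found among the islet transcription factors. Of 15 tested, 1 rose and 2 fell after IAPP, where 0.845% of all tested genes were called, and 2 rose and 1 fell in urolithin B + IAPP against IAPP, where 0.577% were. The medians were -0.25 and 0.28. With the block the counts were 1 and 4, and 3 and 1, beside 7.83% and 5.24% of all tested genes. Mafa, a factor of mature beta cells, stood at 307, 376 and 377 CPM in control, 186, 142 and 128 CPM in IAPP, and 275, 313 and 284 CPM in urolithin B + IAPP cells. It fell after IAPP by 1.21 ± 0.18 (edgeR adjusted p = 0.0104), and was 0.93 ± 0.18 higher in urolithin B + IAPP than in IAPP cells, at the edge of the threshold (adjusted p = 0.04997). Mnx1, a homeodomain factor of the islet, fell by 1.13 ± 0.17 (edgeR adjusted p = 0.00995) and rose by 1.05 ± 0.17 (adjusted p = 0.0182). Nkx6-1, another homeodomain factor, went the other way, with 0.71 ± 0.12 and -0.71 ± 0.12 (edgeR adjusted p = 0.0193 and 0.0257). Pdx1, which binds the Slc2a2 gene in rodents, had -0.36 ± 0.16 and 0.48 ± 0.16 and passed with the block alone (edgeR adjusted p = 0.0397 and 0.00710 with it). In the other 3 pairwise comparisons and the interaction 0 genes of these 6 lists passed without the block.

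**Figure D4:**
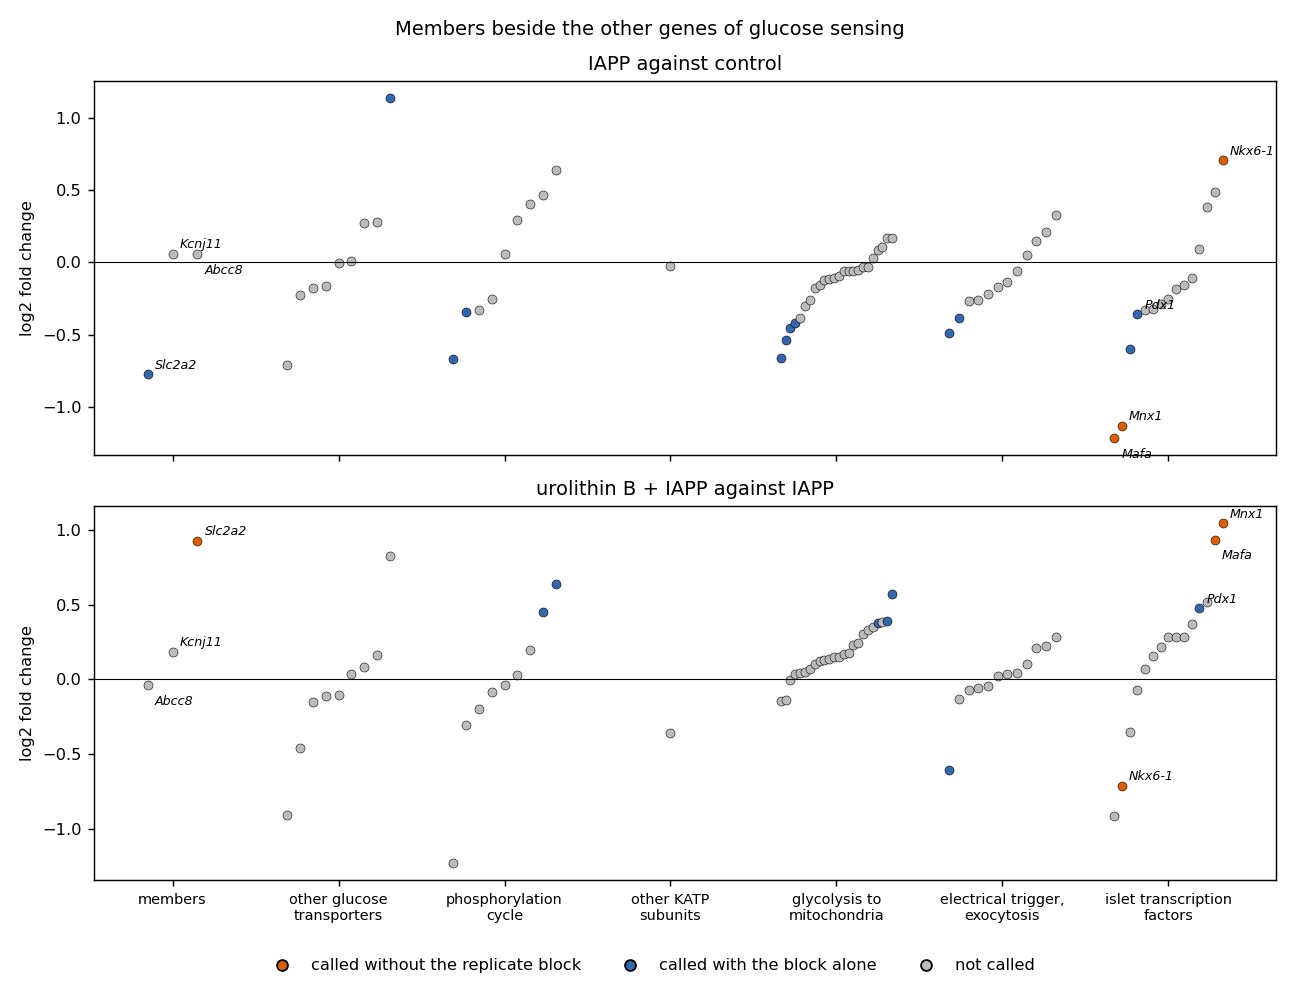
Log2 fold changes (y axes) in IAPP against control and in urolithin B + IAPP against IAPP for the tested members and each tested gene of the 6 pathway lists (x axis), sorted by value within a list and coloured by whether edgeR called the gene without the block (orange), with the block alone (blue) or not at all (grey). Orange points are Slc2a2 in the lower panel, at 0.93, and Mafa, Mnx1 and Nkx6-1 in both.

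Genes whose pattern was most like each member were ranked by Pearson r of log2 CPM over the 12 libraries, after the mean of each replicate number was taken away, among 10741 genes. The libraries share their groups, depth and scaling, so these values describe likeness only. For Slc2a2 the 5 highest were Zcchc18 (r = 0.985), Pcp4l1 (0.978), the cadherin genes Cdh22 (0.975) and Cdh23 (0.973), and Sel1l (0.969), a part of endoplasmic reticulum associated degradation. Zcchc18 ran from 85.9 to 90.1 CPM in IAPP cells, 114 to 129 CPM in control and 136 to 141 CPM in urolithin B + IAPP cells. Cdh22 ran from 55.5 to 61.2, 84.6 to 86.9 and 84.5 to 90.4 CPM in the same order. All 5 were lower in the IAPP library than in the other 3 libraries of its number, as Slc2a2 was. They were chosen by likeness to Slc2a2 in these libraries, so this restates the choice. The share of all genes with this order was not counted. Pdx1 had r = 0.897 with Slc2a2 (rank 135), Mafa 0.817 (rank 426), Kcnj11 0.566 (rank 1722) and Abcc8 0.285 (rank 3478).

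**Figure D5:**
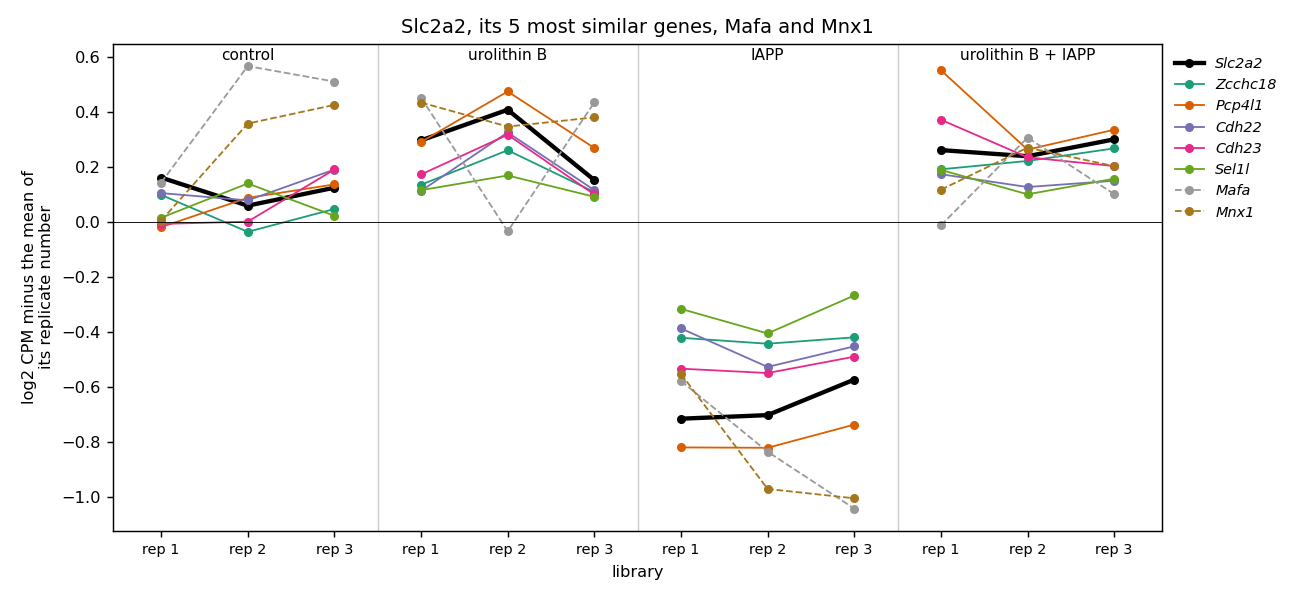
Log2 CPM minus the mean of its replicate number (y axis) in the 12 libraries (x axis, by group and replicate) for Slc2a2, the 5 genes most like it, and Mafa and Mnx1 (dashed). All 8 genes lie under 0 in the 3 IAPP libraries, and all but Mafa lie above 0 in the urolithin B and urolithin B + IAPP libraries.

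The channel genes had other neighbours in this ranking. For Kcnj11 they were Ufm1, a ubiquitin-like modifier (r = 0.933), the splicing factor gene Sart1 (0.930), the polarity gene Pard3b (0.906), Igsf1 (0.903) and Trim8 (0.903). For Abcc8 they were the Golgi protein gene Golgb1 (0.876), Ctdspl2 (0.873), Samd3 (0.870), the kinesin gene Kif3b (0.865) and the kinase gene Rock1 (0.859). Kcnj11 and Abcc8 had r = 0.618 with each other, rank 462 in the list for Kcnj11 and 362 in that for Abcc8, and 0.853 with replicate means kept. The likeness of some genes turned on the replicate means. With these kept, r was 0.168 for Pard3b with Kcnj11, and -0.431 for Ctdspl2 and 0.067 for Samd3 with Abcc8.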

How the data were processed

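Total RNA from a High Pure kit went into QuantSeq 3prime FWD libraries, which read transcript ends, per the labels' protocols. FastQC, Bowtie2 and SAMtools were used, per the submitters' processing notes. Counter, genome build, annotation and strand setting: not given in the sources used here. A single table of raw counts per gene was deposited by the authors and, per the series text, later corrected. Totals were 4828003 to 6681455 counts, and their size limits the precision of low genes.

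Groups came from the titles. Tests used edgeR 4.0.16 (R 4.3.3) with its quasi-likelihood F-test on the counts, TMM scaling, filterByExpr (16814 genes kept), 1 fit of 12 libraries and Benjamini-Hochberg adjustment at 0.05. The pairwise comparison of IAPP with urolithin B was not made. CPM use the TMM-adjusted library total. ± is SE for fold changes and SD for CPM and ratios, and similarity used log2 CPM with prior count 2 for genes of at least 5 CPM on average. The steps were tested on simulated data. Libraries were paired by replicate number, and a fit with the number as a block is given. Deviations from group means correlated in 18 of 18 same-number pairs (r from 0.44 to 0.89), but pairs of different number were not compared. The replicate 1 libraries stood apart in every group, which alone can give such correlations, so the r values do not show matching by number. Whether same-number libraries were otherwise matched was not tested. No pair of libraries within a group agreed within sampling noise (chi-square per degree of freedom of 3.71 or more).

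Alternatives were RLE factors, library size, mitochondrial rRNA left out, other filters, DESeq2 1.42.0, limma-voom (limma 3.58.1), fewer groups or replicates, and single libraries left out. The members and lists were chosen with earlier results of these data known. Named were the members, Mafa and Pdx1, in each list the called genes or else the 3 with the smallest p in IAPP against control, and the 5 genes most like each member, placeholder names skipped. The ratios of Slc2a2, scalings of levels and plain r were added after seeing the data. Of the planned results, 1 gene and its ratio are not reported here.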

Additional observations from a re-analysis of the deposited data

Results flagged for a closer look

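The log2 fold change of Slc2a2 with IAPP was -0.77 ± 0.17 in cells without urolithin B and -0.03 ± 0.16 in cells with it. The interaction, which tests the difference between them, was 0.75 ± 0.23 on the log2 scale (edgeR adjusted p = 0.611, and 0.00376 with the replicate block). It is listed here because its difference between the 2 backgrounds passes over all tested genes with the block, and with the block alone.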

How the results depend on the processing

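The replicate block moved the calls over all genes from 142 to 1316 in IAPP against control, 97 to 881 in urolithin B + IAPP against IAPP, 0 to 1 in urolithin B against control, 0 to 12 in urolithin B + IAPP against control, 0 to 2 in urolithin B + IAPP against urolithin B and 5 to 274 in the interaction. Among members it added Slc2a2 in IAPP against control (-0.78) and in the interaction (0.76), and it changed no other member's call. In IAPP against control the count was 55 with library size alone, 482 with DESeq2, 90 with only 2 groups in the fit, 754 in replicates 2 and 3 alone, and 42 to 154 with single libraries left out (42 without control replicate 2, 43 without IAPP replicate 2 or 3, 49 without control replicate 3 and 86 without control replicate 1). In urolithin B + IAPP against IAPP it was 18, 288, 23 and 418 in the same order, and 25 to 99 with single libraries left out (25 without urolithin B + IAPP replicate 2 or 3, 28 without IAPP replicate 3, 30 without IAPP replicate 2, 48 without replicate 1 of either group, 51 without control replicate 3 and 57 without control replicate 2). DESeq2 gave 5 genes in urolithin B + IAPP against control. The interaction gave 3 genes with no filter on low counts, 3 with at least 1 CPM in 3 libraries, 101 with DESeq2, 8 with limma-voom, 107 in replicates 2 and 3 alone and 1 to 2 with single libraries left out, whichever was left out.

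Slc2a2 kept its sign in IAPP against control and in urolithin B + IAPP against IAPP under all 22 alternatives. In the first it was also called with library size alone (-0.86), DESeq2 (-0.78), limma-voom (-0.78) and replicates 2 and 3 alone (-0.73), and without urolithin B replicate 2 (-0.77). With the block these were 6 of the 22 alternatives, and Slc2a2 was not called in the rest. Single libraries left out gave -0.85 to -0.66, with edgeR adjusted p up to 0.312. In the second its call was kept in 11 of the 22 alternatives and lost in 11. It was lost with no filter (0.94), with only the 2 groups compared (0.92) and with most single libraries left out. Only 3 of these last kept it. They gave 0.81 to 1.05, with edgeR adjusted p up to 0.192. Changes near 0 turned sign, none of them called. With library size alone, Kcnj11 was at -0.035 and Abcc8 at -0.040 in IAPP against control and Abcc8 at -0.12 in urolithin B + IAPP against control. That scaling moved the median of all genes in the last comparison from 0.02 to -0.09. Single libraries left out gave -0.054 to 0.22 for Kcnj11 and -0.11 to 0.27 for Abcc8 in IAPP against control, -0.25 to 0.16 for Abcc8 in urolithin B + IAPP against IAPP and -0.11 to 0.20 for Abcc8 in urolithin B + IAPP against control. In urolithin B + IAPP against urolithin B they gave -0.12 to 0.13 for Slc2a2, -0.088 to 0.10 for Kcnj11 and -0.31 to 0.0097 for Abcc8, and in the interaction -0.23 to 0.050 for Kcnj11. The ratio of Abcc8 to Kcnj11 moved between -0.089 and 0.052 in IAPP against control and between -0.13 and 0.0048 in urolithin B against control. With mitochondrial rRNA taken out, which lowers every total, Slc2a2 stood at 602 CPM in control libraries, 352 after IAPP and 670 after both agents, and Kcnj11 at 177 in control libraries, 211 after urolithin B and 210.4 after both. The cause of the other changes was not tested. Replicate 1 alone, with 1 library per group, gives no test.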
